A study of Homo sapiens with 12 samples.

Results

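The clustered histone genes supply the bulk histones that package newly copied DNA. They were taken here as every gene measured by a probe set with a single gene symbol of the form H2AC, H2BC, H3C or H4C followed by a number, or H1-1 to H1-6. The rule found 50 of the 14232 genes measured in this way: 6 of the linker histone H1, 11 of H2A, 13 of H2B, 9 of H3 and 11 of H4. RefSeq's gene table lists 69 protein-coding genes of this form. Of the remainder, 9 (H2AC7, H2AC13, H2AC14, H2BC6, H2BC9, H2BC12, H2BC18, H3C4 and H3C13) shared a probe set with another gene and were not analysed here, and 10 were in no probe set with a symbol used here. Each of the 50 had 1 such probe set, and 45 lie on chromosome 6, 4 on chromosome 1 and 1, H4C16, on chromosome 12. Genes of a family have coding sequences that are nearly the same, and probe sequences were not used here, so a value can hold signal from a close copy.

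The cells were LN229, an established human glioblastoma line, and the RNA was measured on 12 Affymetrix whole-transcript arrays, 3 for each of 4 groups. All cells received siRNA 24 h after seeding and were moved 48 h later to their oxygen level for 16 h. The groups were 20% oxygen with a non-targeting siRNA (normoxia), and 1% oxygen with a non-targeting siRNA, with siRNA against HIF1A or against HIF2A (gene symbol EPAS1). Both genes encode subunits of hypoxia-inducible factors that are degraded when oxygen is plentiful. The study asked which responses to low oxygen depend on which subunit. There was no group with HIF1A or HIF2A siRNA in normoxia, and all results come from 1 cell line. No label tells whether replicates were grown separately, and the p-values therefore reflect only variation among these arrays, possibly technical.

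Each targeted transcript was low under its own siRNA. Log2 values of HIF1A in hypoxia were 11.72, 11.40 and 11.26 under control siRNA against 8.20, 9.06 and 7.74 under its own. Those of EPAS1 were 9.74, 9.57 and 9.83 under control siRNA, 7.18, 6.99 and 7.18 under HIF2A siRNA, and 8.60, 8.08 and 8.02 under HIF1A siRNA, so EPAS1 fell under both. Among markers of the line, VIM (mean log2 value 12.19), S100B (10.55), NES (10.03) and CD44 (9.75) were bright, and GFAP (6.37) was not. The 13 markers of other cells (neurons, oligodendrocytes, leukocytes, endothelium and epithelium) ran from 2.33 for EPCAM to 8.39 for the neuronal SYT1, with a median of 4.90, and 12 lay below the median gene (6.99). The brightest after SYT1 were SNAP25 (6.78) and the epithelial KRT19 (6.77), both above GFAP, while the leukocyte marker PTPRC stood at 2.45. Group means of these 13 were 4.97 in normoxia, 4.95 in hypoxia with control siRNA, 5.07 with HIF1A siRNA and 4.99 with HIF2A siRNA. Array medians over all probe sets ran from 6.49 to 6.82, the lowest being HIF1A siRNA replicate 3.

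In cycling cells these genes are transcribed as the cell enters S phase, when cyclin E with CDK2 phosphorylates the coactivator NPAT in nuclear bodies built at the gene clusters. Their mRNAs carry no poly(A) tail but end in a stem-loop, which is bound by SLBP, cut after transcription by the U7 snRNP, and degraded when DNA synthesis stops. The core histones H2A, H2B, H3 and H4 form the nucleosome and H1 binds the DNA that links nucleosomes. In bulk RNA, fewer cells in S phase and less histone mRNA per cell cannot be told apart.

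The promoters below show the sequence elements shared within the families, and were chosen for the measurements that follow. H2BC3 had the most negative difference in hypoxia, H2BC8 shares its promoter region with H2AC8, H2BC14 was called lower in all 3 comparisons with normoxia whatever the alternative setting, H2BC21 was not called lower in hypoxia, and H1-5 led the H1 genes. Each is the 250 bases before the gene's start in RefSeq, build GRCh38.p14, read 5′ to 3′ on the gene's strand. Capitals mark the octamer ATTTGCAT (known as the binding site of OCT1), the CCAAT box CCAAT, the TATA box TATAAA and the H1 box AAACACA, on either strand.
H2BC3 (chr6:26043714-26043963, minus strand): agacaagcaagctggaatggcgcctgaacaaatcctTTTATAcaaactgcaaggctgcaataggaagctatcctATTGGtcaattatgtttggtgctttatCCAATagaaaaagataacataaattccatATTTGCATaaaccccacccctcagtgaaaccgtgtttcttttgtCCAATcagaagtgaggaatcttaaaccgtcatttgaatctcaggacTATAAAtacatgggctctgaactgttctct
H2BC8 (chr6:26216689-26216938, minus strand): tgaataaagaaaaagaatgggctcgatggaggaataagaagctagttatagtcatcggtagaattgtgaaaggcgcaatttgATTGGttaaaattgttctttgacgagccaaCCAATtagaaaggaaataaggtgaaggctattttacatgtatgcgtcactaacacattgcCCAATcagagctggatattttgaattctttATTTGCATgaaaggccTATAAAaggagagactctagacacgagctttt
H2BC14 (chr6:27814772-27815021, plus strand): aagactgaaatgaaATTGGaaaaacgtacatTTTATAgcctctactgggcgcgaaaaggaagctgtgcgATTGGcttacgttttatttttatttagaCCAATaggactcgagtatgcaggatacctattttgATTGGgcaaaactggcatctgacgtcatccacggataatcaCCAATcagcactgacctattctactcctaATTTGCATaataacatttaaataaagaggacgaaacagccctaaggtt
H2BC21 (chr1:149886683-149886932, minus strand): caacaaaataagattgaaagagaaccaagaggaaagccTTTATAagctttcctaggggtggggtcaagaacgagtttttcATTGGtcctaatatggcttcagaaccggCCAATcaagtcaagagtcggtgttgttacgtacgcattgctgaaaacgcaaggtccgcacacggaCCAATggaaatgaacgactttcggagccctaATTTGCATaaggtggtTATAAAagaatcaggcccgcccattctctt
H1-5 (chr6:27867589-27867838, minus strand): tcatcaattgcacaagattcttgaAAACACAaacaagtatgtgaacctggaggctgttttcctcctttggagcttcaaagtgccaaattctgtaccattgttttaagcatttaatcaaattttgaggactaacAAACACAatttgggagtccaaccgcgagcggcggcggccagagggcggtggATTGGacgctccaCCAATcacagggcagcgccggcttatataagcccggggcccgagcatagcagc

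RefSeq's promoter table matched 45 of the 50 genes (H2AC12, H3C11, H3C12, H4C1 and H4C3 have no entry in it). The octamer, on either strand, stood in 18 of the 45 windows (40.0%), against 1.66% of 27305 promoters of the same length. It was found in 8 of 10 H2A and 10 of 13 H2B windows and in no H1, H3 or H4 window, and genes that face each other share part of a window and can share a match. In H2BC8, H2BC14 and H2BC21 it began 48, 48 and 46 bases before the start, and in H2BC3 it began 120 bases before. CCAAT, on either strand, stood in 39 of 45 windows (86.7%, against 33.0% of all promoters), with 3 of 9 H4 windows holding it and every window of the other families. TATAAA, on either strand, stood in 29 of 45 (64.4%, against 11.1%). In H2BC14 its only match was on the opposite strand, beginning 219 bases before the start. AAACACA, on either strand, stood in all 6 H1 windows and in none of the 39 others, against 4.95% of all promoters. In H1-1 its only match was on the opposite strand, beginning 183 bases before the start. The octamer was in 10 of the 20 windows of genes that fell in hypoxia and in 8 of the 25 windows of genes not called. H2BC14, which fell, and H2BC21, which was not called, have it at nearly the same distance from the start. A match is a description of the letters, not evidence of binding.

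The 50 probe sets spanned mean log2 values from 2.36 to 12.13, with a median of 7.64 against 6.99 over all genes. Values of different probe sets do not rank transcript amounts, but they show which genes were near the dim end. H1-1, H1-6, H2BC1, H2BC10, H4C7 and H4C16 lay at or below 4.77, the lower quartile of all probe sets. H1-1, H1-6 and H2BC1 are known mainly from the thymus, spleen or testis. The spread between arrays of a group was wider for histone genes than for most genes, with a median SD of 0.26 against 0.17 on the log2 scale.

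Histone genes were lower in hypoxia across the 5 families. With control siRNA, 24 of 50 (48%) fell and 0 rose (limma on all genes, Benjamini-Hochberg adjusted p under 0.05), where 8.95% of all genes fell and 3.37% rose. The median log2 difference was -0.63, against -0.03 over all genes, and 43 of the 50 differences were negative. For 34 genes (68%) all 3 hypoxic values lay below all 3 normoxic values, against 26.3% of all genes, and for 1, H2BC5, they all lay above, against 12.1%. By family, 8 of 11 H2A genes fell (median -0.82), 5 of 13 H2B genes (median -0.50), 4 of 9 H3 genes (median -0.72), 4 of 11 H4 genes (median -0.43) and 3 of 6 H1 genes (median -0.62); families were not tested against each other. The count was 13 without normoxia replicate 3 and 15 without hypoxia control replicate 2, where 3.91% and 3.53% of all genes fell. It was between 19 and 23 without any other array of the comparison, where 3.63% to 7.55% of all genes fell. The histone median stayed between -0.67 and -0.59.

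**Figure D1:**
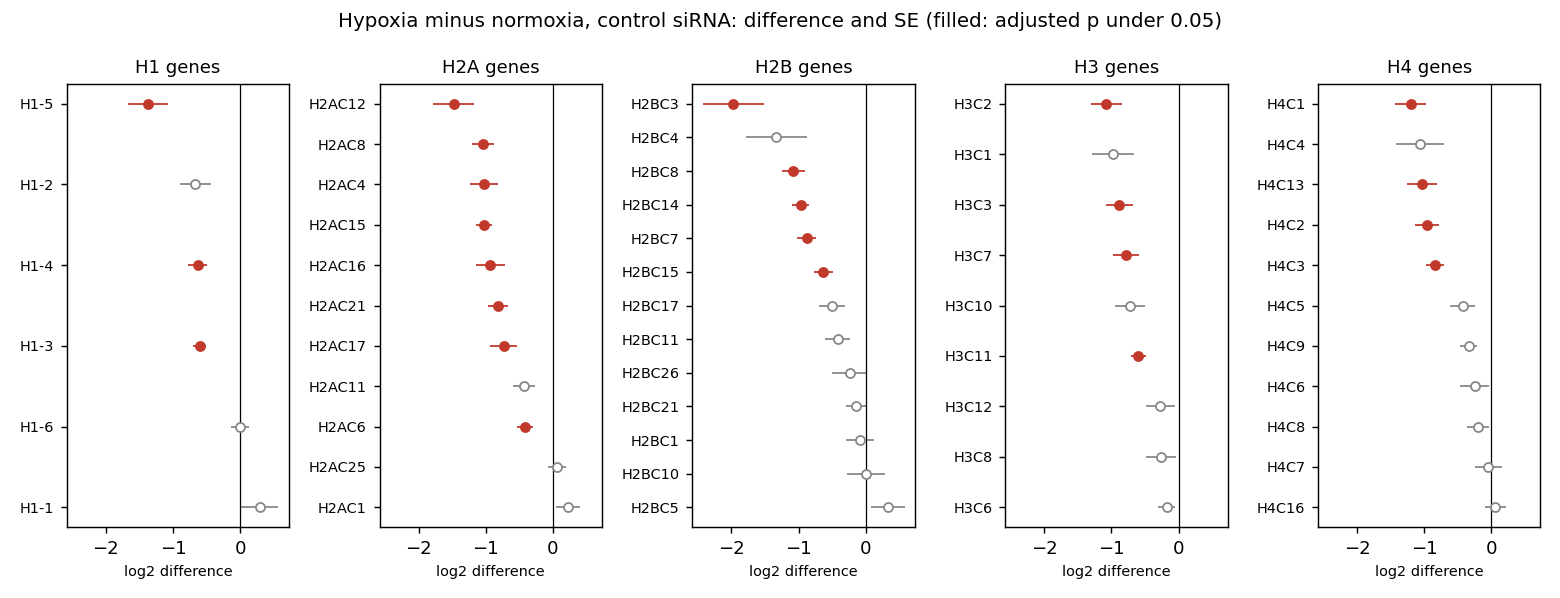
Log2 difference between hypoxia and normoxia with control siRNA (x axis) for each of the 50 histone genes, 1 panel per family, genes ordered by their difference. Bars are limma's standard errors, and filled red points are the 24 genes with an adjusted p under 0.05, all of them left of 0; H2BC3 at -1.97 and H2BC4 at -1.33 have the widest bars among the low values.

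H2A genes, whose products pair with H2B, had the largest share of falls. H2AC12 measured 9.32, 9.21 and 9.65 in normoxia and 8.14, 8.18 and 7.43 in hypoxia. The groups were separated by over 1 unit, and the difference was -1.48 (SE 0.30, 2.79-fold lower, adjusted p = 0.0092 with limma). H2AC15 measured 10.80, 10.70 and 11.12 in normoxia and 9.91, 9.90 and 9.76 in hypoxia, without overlap. Its difference of -1.02 (SE 0.12, adjusted p = 0.000645) had the lowest adjusted p of the 50. H2AC8 (-1.04), H2AC4 (-1.03), H2AC16 (-0.93), H2AC21 on chromosome 1 (-0.82), H2AC17 (-0.73) and H2AC6 (-0.42) also fell. H2AC6 had the smallest fall of the 24 and lost its call without any 1 of the 6 arrays (highest adjusted p 0.168), and H2AC17 lost it without any normoxia array or without hypoxia control replicate 2 (0.127). H2AC11 stood at -0.43 without a call, H2AC25 at 0.06, and H2AC1, a testis-enriched gene, at 0.22.

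H2B genes varied most among themselves. H2BC3 measured 8.65, 8.59 and 8.49 in normoxia, and 7.12, 5.95 and 6.78 in hypoxia. The normoxic values lay within 0.2 of each other and the hypoxic values spread over more than 1 unit, with replicate 2 the lowest. The difference of -1.97 (SE 0.46, 3.90-fold lower, adjusted p = 0.0185 with limma) was the most negative of the 50 and had, with that of H2BC4, the widest error. The call of H2BC3 was lost without any 1 normoxic array, or without hypoxia control replicate 2 (highest adjusted p 0.0828). Falls over all genes also dropped without each of these arrays, from 1274 to between 503 and 814. H2BC4 measured 9.18, 8.96 and 9.60 in normoxia and 8.70, 7.56 and 7.49 in hypoxia, and its -1.33 (SE 0.46) was not called (adjusted p = 0.0895), with replicate 1 standing more than 1 unit above the others in hypoxia.

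Other H2B genes fell with little spread. H2BC14 measured 12.68, 12.75 and 12.76 in normoxia and 11.74, 11.80 and 11.76 in hypoxia. Neither group spread over more than 0.1, and the difference was -0.97 (SE 0.13, adjusted p = 0.00112). H2BC8 (-1.08, SE 0.17), H2BC7 (-0.88, SE 0.14) and H2BC15 (-0.63, SE 0.14) also fell, and H2BC15 lost its call without normoxia replicate 1 or 3 or hypoxia control replicate 2 (highest adjusted p 0.066). H2BC21, whose mRNA can also be polyadenylated, measured 7.69, 7.61 and 7.74 in normoxia and 7.58, 7.35 and 7.69 in hypoxia, and the overlapping groups differed by -0.14 (SE 0.16, adjusted p = 0.686). H2BC5 was the only gene of the 50 with all hypoxic values above the normoxic ones, with hypoxic values of 7.28, 7.30 and 7.72 and a normoxic maximum of 7.20. Its 0.33 (SE 0.25) was the most positive difference and was not called (adjusted p = 0.508).

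**Figure D2:**
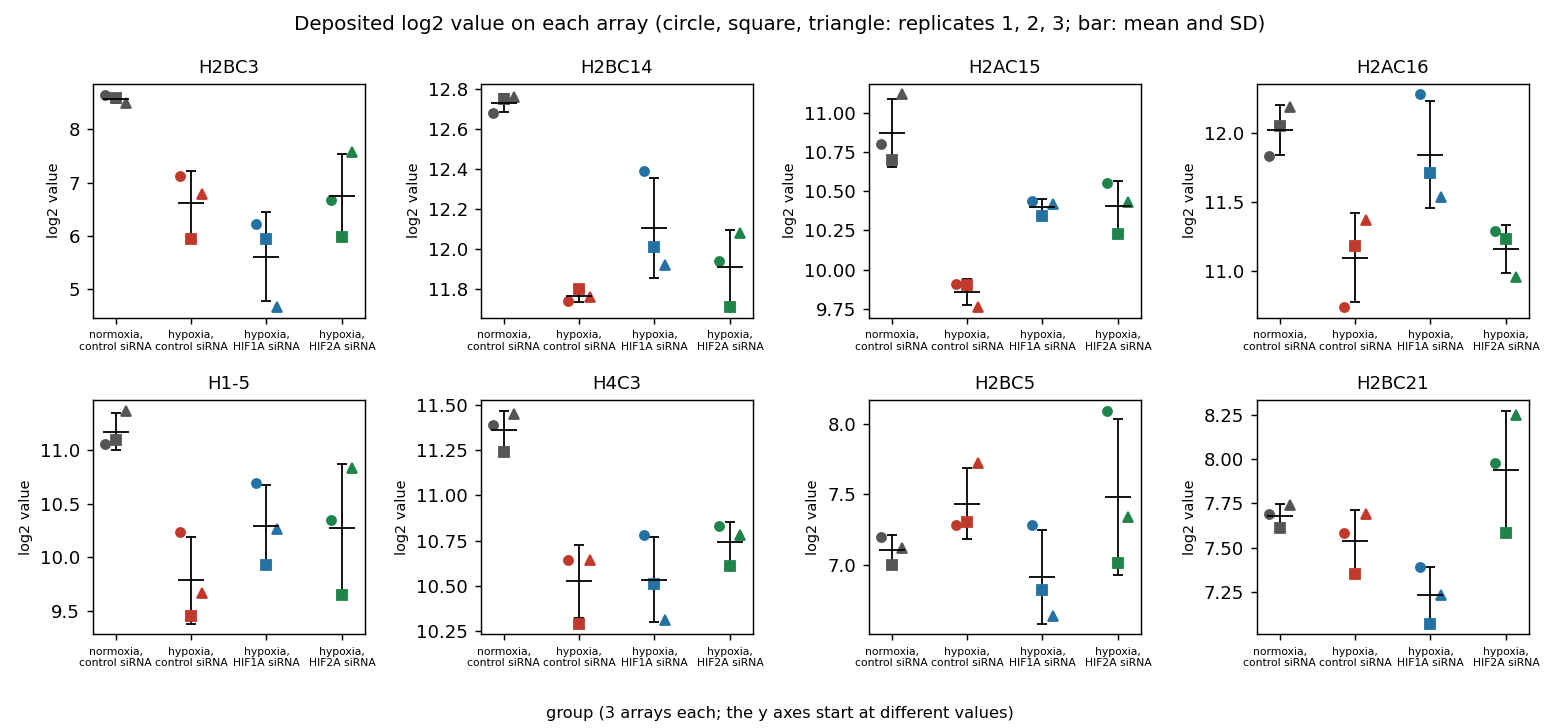
Deposited log2 value (y axis, range set for each gene) on each of the 12 arrays for 8 histone genes; symbols are replicates 1 to 3 of the 4 groups on the x axis, the wide bar is the group mean and the whiskers the SD of 3 arrays. H2BC14 shows tight groups at 12.73 and 11.77 in normoxia and hypoxia with control siRNA, and H2BC3 a hypoxic spread from 5.95 to 7.12.

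H3 and H4 form the tetramer at the centre of the nucleosome, and 4 of 9 H3 and 4 of 11 H4 genes fell. Every one of the 9 H3 differences was negative, from -1.08 to -0.18. H3C2 measured 11.84, 11.87 and 12.06 in normoxia and 11.18, 10.65 and 10.69 in hypoxia (difference -1.08, SE 0.23, adjusted p = 0.0122 with limma), and H3C3 (-0.88), H3C7 (-0.78) and H3C11 (-0.60) also fell. The groups of H3C2 did not overlap, but its call was lost without normoxia replicate 3 or hypoxia control replicate 2, and H3C3 and H3C7 each lost theirs without any of 4 arrays (highest adjusted p 0.0929). H3C1 (-0.98, adjusted p = 0.0646) and H3C10 (-0.72, adjusted p = 0.0608) were not called, with no overlap between groups. H4C1 measured 8.18, 7.59 and 8.10 in normoxia and 6.65, 6.81 and 6.82 in hypoxia (-1.20, SE 0.23, adjusted p = 0.00763). Its hypoxic values lay closely together below a normoxic group in which replicate 2 was low. H4C13 (-1.03), H4C2 (-0.96) and H4C3 (-0.84) also fell, and H4C13 lost its call without normoxia replicate 3 or hypoxia control replicate 2. H4C4 was similar in size (-1.06, SE 0.36) without a call (adjusted p = 0.0844), and the other 6 H4 genes lay between -0.43 and 0.06.

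The linker histone genes divided by signal. H1-5 measured 11.05, 11.09 and 11.36 in normoxia and 10.24, 9.46 and 9.67 in hypoxia (difference -1.37, SE 0.30, 2.59-fold lower, adjusted p = 0.0129 with limma). The groups did not overlap, and replicate 1 stood above the other hypoxic arrays. H1-4 (-0.63) and H1-3 (-0.60) fell with hypoxic values within 0.05 of each other, at 11.69, 11.68 and 11.69 for H1-4 and 8.67, 8.72 and 8.72 for H1-3. H1-4 lost its call without normoxia replicate 3, and H1-5 without that array or hypoxia control replicate 2 (highest adjusted p 0.0623). H1-2 stood at -0.67 without a call (adjusted p = 0.0919). The dim H1-6 and H1-1 stood at 0.00 and 0.29.

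Falls of histone genes were most frequent among the brightest probe sets and absent among the dimmest, with similar shares in between. All 13 histone genes with a mean log2 value of 10 or more fell (median -0.88), where 16.6% of all genes in that range did (median -0.13). Between 7 and 10, 7 of 20 fell (median -0.69), against 14% of all genes (median -0.14). Between 4.77 and 7, 4 of 11 fell (median -0.34), against 5.24%, and of the 6 genes below, 0 fell, with a median of 0.00 and 1.11% of all genes. Along chromosome 6, where wide gaps separate groups of neighbours, 14 of 28 genes from H1-1 to H4C8 and 8 of 11 from H3C10 to H2BC17 fell, with a median of -0.73 in each. Of the 4 from H2BC11 to H2AC12, 1 fell, and of H2AC1 and H2BC1 neither did.

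H2A and H2B genes often lie head to head, so that a single stretch of DNA serves as promoter for both. Among the measured genes 7 such pairs were found, with 194 to 248 bases between the starts. Both genes fell in 2 pairs, H2BC8 with H2AC8 (-1.08 and -1.04) and H2AC15 with H2BC15 (-1.02 and -0.63). In H2BC4 with H2AC6 and in H2AC17 with H2BC17 only the H2A gene was called, and H2BC17 stood at -0.50 (adjusted p = 0.121). In H2AC25 with H2BC26, H2AC1 with H2BC1 and H2BC11 with H2AC11 neither was called, and in H2BC11 with H2AC11 the values were close, at -0.42 and -0.43. Differences within a pair were not tested. The H2A-to-H2B gap was largest in H2BC4 with H2AC6, where the error of H2BC4 was also largest.

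**Figure D3:**
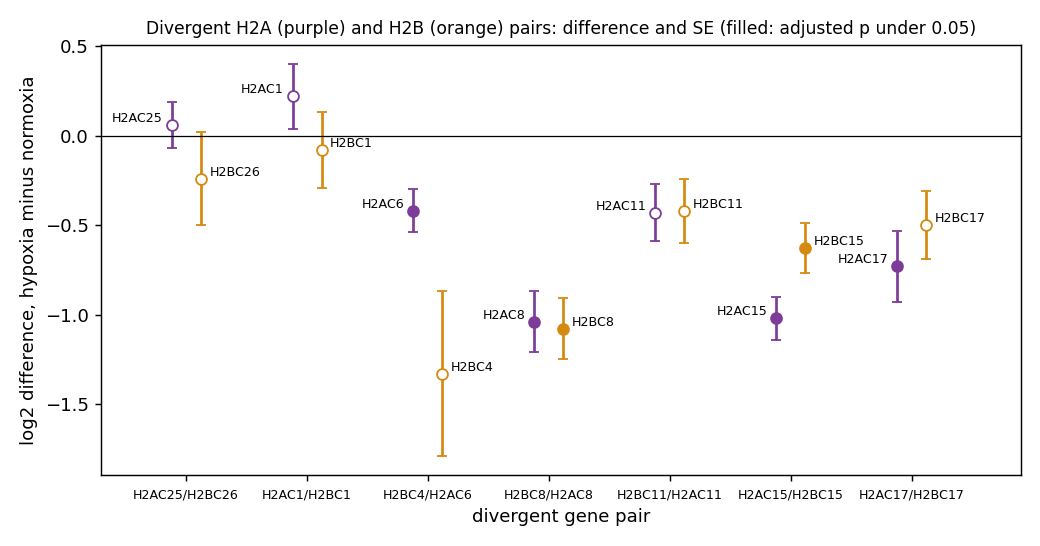
Log2 difference between hypoxia and normoxia with control siRNA (y axis) for the 7 head-to-head pairs of an H2A gene (purple) and an H2B gene (orange) on the x axis; bars are limma's standard errors and filled points have an adjusted p under 0.05. H2BC8 and H2AC8 lie at -1.08 and -1.04, H2BC4 and H2AC6 at -1.33 and -0.42.

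Array by array, the fall was present on each hypoxic control array. The median of the 50 genes was 8.23, 8.11 and 8.44 in normoxia and 7.45, 7.38 and 7.46 in hypoxia with control siRNA. On these hypoxic arrays 39, 40 and 35 of the 50 genes lay below all 3 normoxic values (78%, 80% and 70%), where 43.4%, 44.1% and 44.1% of all genes did. With HIF1A siRNA the median was 7.87, 7.48 and 7.19, and 27, 42 and 39 genes lay below the normoxic range (54%, 84% and 78%, against 45.4%, 49.8% and 58.3% of all genes). With HIF2A siRNA the median was 7.81, 7.42 and 7.88, and 33, 38 and 39 genes lay below it (66%, 76% and 78%, against 39.5%, 47.9% and 46.9% of all genes). The medians of all 9 hypoxic arrays lay below those of all 3 normoxic arrays.

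Arrays of a group differed in a shared direction. HIF1A siRNA replicate 1 had the highest value of its group for 45 of the 50 genes (50% of all genes) and replicate 3 the lowest for 37 (63.2% of all genes). Normoxia replicate 3 was the highest of its group for 35 (33.7% of all genes), and HIF2A siRNA replicate 2 the lowest of its group for 31 (50.9% of all genes). The median of all genes lay 0.25 below its normoxic mean on HIF1A siRNA replicate 3, and within 0.09 of it on every other array. The part of this array-wide shift in the histone values was not tested beyond the alternative normalizations. On HIF1A siRNA replicate 1, H2AC16 (12.28) lay above and H3C3 (12.44) within its normoxic range, while H2BC3 (6.23) and H2AC4 (6.47) lay below normoxic means of 8.58 and 7.47.

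**Figure D4:**
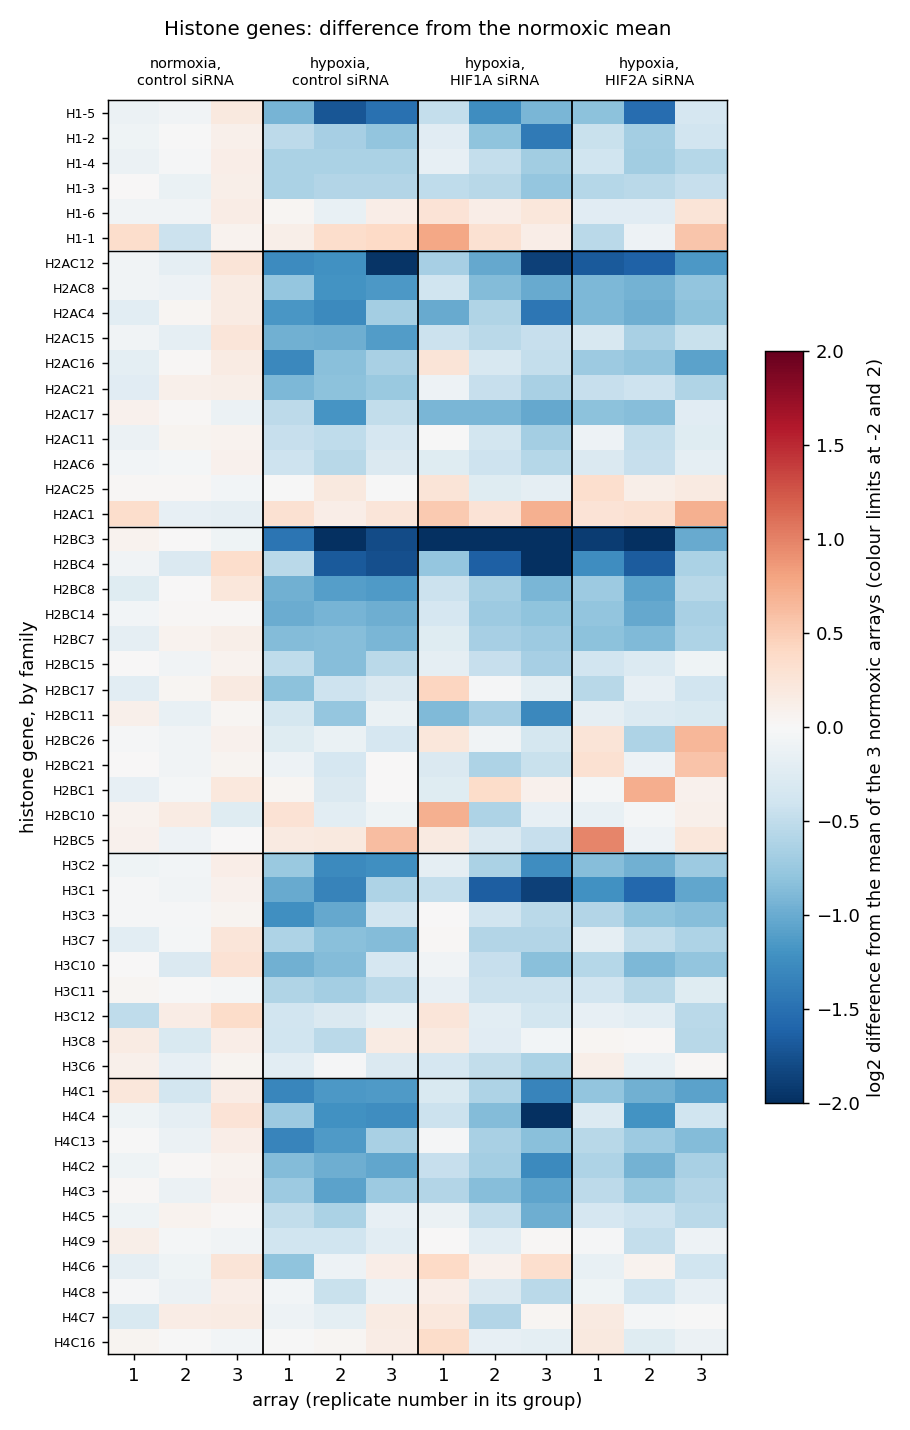
Difference of each of the 12 arrays (columns, replicates 1 to 3 of the 4 groups) from the mean of the 3 normoxic arrays for the 50 histone genes (rows, by family), on the log2 scale; blue is lower and red higher, with colours limited at -2 and 2. The hypoxic control columns are blue for most genes, and the column of HIF1A siRNA replicate 1 is the palest of the hypoxic arrays.

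HIF1A siRNA in hypoxia gave few calls among the histone genes. Against control siRNA 2 of 50 rose, H2AC15 and H2AC16, and 0 fell (limma), where 0.857% of all genes rose and 10.2% fell. At an unadjusted p under 0.05, 2 of the 50 were lower and 11 higher, against 3395 and 962 of all 14232 genes. The median difference was 0.17, against -0.05 over all genes, and all 3 values lay above the controls for 10 genes (20%, against 11% of all genes) and below for 2 (4%, against 19.8%). H2AC15 measured 10.44, 10.34 and 10.42 against 9.91, 9.90 and 9.76 with control siRNA, a gap wider than either group (difference 0.54, SE 0.12, adjusted p = 0.0221). H2AC16 measured 12.28, 11.71 and 11.54 against 10.74, 11.18 and 11.37, and the groups came close to each other, with 11.54 above 11.37 (difference 0.75, SE 0.21, adjusted p = 0.0428). Both calls were lost without hypoxia control replicate 1 or 3, with array weights and with the compared groups alone, and that of H2AC16 also without hypoxia control replicate 2 or HIF1A siRNA replicate 1 and that of H2AC15 without HIF1A siRNA replicate 3 (highest adjusted p 0.184 and 0.0933). The number of rises depended on the scaling: 11 with quantile normalization, 12 with cyclic loess and 9 with array medians centred. Of all genes, 5.1%, 3.83% and 3.58% rose under these. No histone gene fell under any of them, where 7.9%, 8.31% and 8.94% of all genes fell.

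Other histone genes were not called with HIF1A siRNA. H3C3 and H2BC17 stood at 0.58 each (adjusted p = 0.0847 and 0.0752), and H1-5 at 0.50. H2BC3 had the most negative value, at 6.23, 5.95 and 4.67 against 7.12, 5.95 and 6.78 with control siRNA. Replicate 3 lay more than 1 unit below the other arrays, the groups overlapped at 5.95, and the difference of -1 (SE 0.46) was not called (adjusted p = 0.168 with limma). H2BC5 and H2BC11 stood at -0.52 each (adjusted p = 0.189 and 0.0851).

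HIF2A siRNA gave 0 calls in either direction among the 50 genes (limma), and 1 lower call, EPAS1 itself, among all genes (0.00703%). At an unadjusted p under 0.05, 4 of the 50 were higher and 0 lower, against 255 and 247 of all 14232 genes. The median difference from control siRNA was 0.14, against -0.01 over all genes. All 3 values lay above the controls for 6 genes (12%, against 4.46%) and below for 0 (4.9% of all genes). H2AC15 had the highest difference, at 10.55, 10.23 and 10.43 against 9.91, 9.90 and 9.76, with no overlap (0.55, SE 0.12), but its adjusted p was 0.796. H1-5 (0.49) and H4C4 (0.44) followed, and H1-1 (-0.32), H3C1 (-0.29) and H4C16 (-0.12) were the lowest. Both siRNA comparisons use the same 3 control arrays, so the 2 differences of H2AC15 are not independent.

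Each siRNA group in hypoxia was also compared with normoxia, as in the study's design. With HIF1A siRNA 25 of 50 fell (50%) and 1, H2AC1, rose, where 30.4% of all genes fell and 4.67% rose. The median difference was -0.45, against -0.12 over all genes, with 26 genes (52%, against 37.8%) having all values below normoxia and 0 having all above (16.7% of all genes). H2BC3 (-2.96, SE 0.46, adjusted p = 0.00298), H2BC4 (-1.69) and H3C1 (-1.33) fell most. H2AC1, H1-1 (0.41) and H4C6 (0.27) had the highest differences, and the rise of H2AC1 (0.50, adjusted p = 0.0455) came with overlapping groups and was lost in 7 of 15 alternatives. The falls numbered 12 with quantile normalization or cyclic loess, where 14.6% and 15.6% of all genes fell. They numbered 13 without normoxia replicate 3 or HIF1A siRNA replicate 3, where 20.3% and 17.1% of all genes fell. They numbered 16 without normoxia replicate 1 (15.5% of all genes) and 32 without HIF1A siRNA replicate 1 (32.2%).

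With HIF2A siRNA 18 of 50 fell (36%) and 0 rose against normoxia, where 6.79% of all genes fell and 2.85% rose (9.64% in all), with a median of -0.45 against -0.05. All values lay below normoxia for 30 genes (60%, against 26.7%) and above it for 1, H2AC25 (10% of all genes). H2BC3 (-1.84), H2AC12 (-1.48) and H3C1 (-1.27) fell most, and H2AC1 (0.42), H2BC5 (0.37) and H2BC1 (0.27) had the highest differences without a call. This count dropped without single arrays, as did the falls over all genes. It was 3 without normoxia replicate 3 (2.59% of all genes), 7 without normoxia replicate 1 (2.44%) and 8 without normoxia replicate 2 (3.67%). It was 5 without HIF2A siRNA replicate 2 (2.56% of all genes) and 9 without HIF2A siRNA replicate 1 (3.87%). H2AC8, H2BC7 and H2BC14 were the 3 genes that kept their call in every alternative.

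The 3 comparisons with normoxia share the normoxic arrays, and their calls are given side by side. The genes that fell in all 3 numbered 15 (30%, against 5.04% of all genes), namely H1-3, H1-4, H2AC4, H2AC8, H2AC12, H2AC15, H2BC3, H2BC7, H2BC8, H2BC14, H3C2, H3C11, H4C1, H4C2 and H4C3. H2AC12 stood at -1.48 with control siRNA, -1.19 with HIF1A siRNA and -1.48 with HIF2A siRNA. H2BC14 stood at -0.97, -0.62 and -0.82, H4C3 at -0.84, -0.83 and -0.63, and H1-3 at -0.60, -0.61 and -0.52. H2AC21, H3C7 and H4C13 were called with control siRNA alone, and H1-2, H2BC4, H2BC11, H3C6 and H4C4 with HIF1A siRNA alone; a call present in a single comparison is not a test of a difference between groups. H1-5, H2AC6, H2AC17 and H2BC15 were called with control and HIF1A siRNA, H2AC16 and H3C3 with control and HIF2A siRNA, and H3C1 with both targeting siRNAs. The other 20 genes were called lower in none of the 3.

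**Figure D5:**
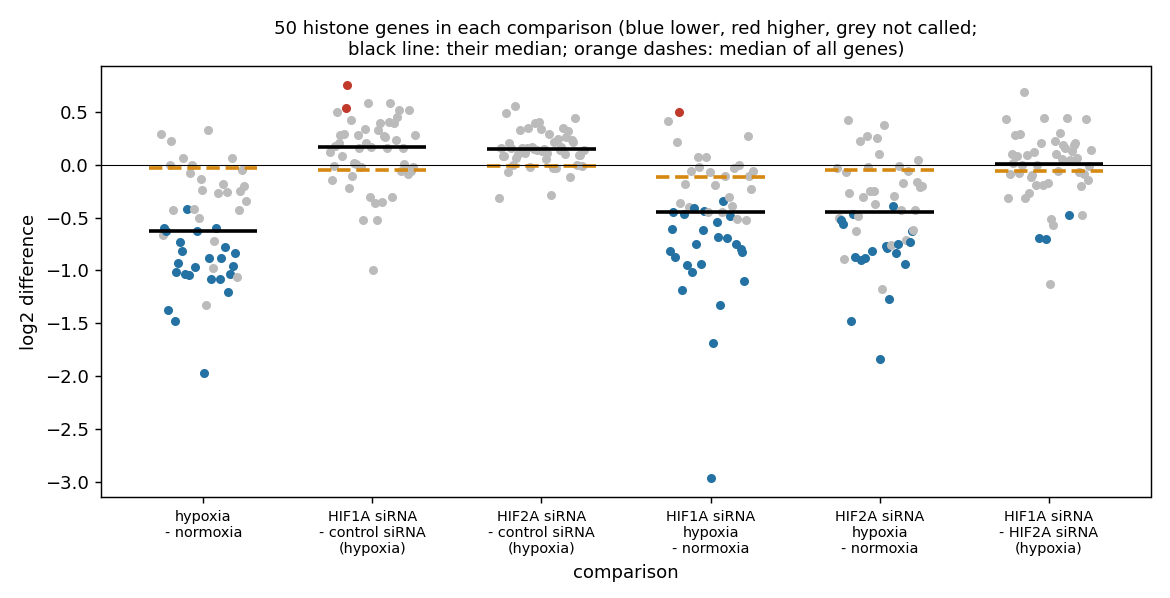
Log2 difference (y axis) of each of the 50 histone genes in the 6 comparisons (x axis); blue and red points are genes called lower and higher, grey points are not called, the black line is the median of the 50 and the orange dashes the median of all genes. The medians are -0.63, 0.17, 0.14, -0.45, -0.45 and 0.01 from left to right, and H2BC3 is the lowest point in every comparison except that of HIF2A siRNA with control siRNA.

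Set against each other, the siRNAs differed for 3 of 50 histone genes, all lower with HIF1A siRNA, where 8.53% of all genes were lower and 0.899% higher (9.43% in all). H2BC21 measured 7.39, 7.07 and 7.23 with HIF1A siRNA and 7.98, 7.58 and 8.25 with HIF2A siRNA (difference -0.70, SE 0.16, adjusted p = 0.0265 with limma). Its hypoxic control values of 7.58, 7.35 and 7.69 overlapped both groups. H2BC11 (-0.69, SE 0.18, adjusted p = 0.0396) and H3C6 (-0.48, SE 0.12, adjusted p = 0.0346) were the other two. All 3 calls were lost without HIF1A siRNA replicate 3, HIF2A siRNA replicate 1 or HIF2A siRNA replicate 3, with highest adjusted p values of 0.133, 0.136 and 0.140. H2BC3 had the lowest difference (-1.13, adjusted p = 0.124) and H2AC16 the highest (0.69, adjusted p = 0.0602), and neither was called. All values were lower with HIF1A siRNA for 4 genes (8%, against 18.7% of all genes) and higher for 3 (6%, against 11.8%). The median difference was 0.01, against -0.06 over all genes.

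Genes that serve histone supply were described from 4 lists, to be read against the 8.95% of all genes that fell in hypoxia and the 3.37% that rose. Of 30 measured genes of S phase entry and replication, 24 fell in hypoxia (80%) and 0 rose (median -0.89), led by the checkpoint adaptor CLSPN (-1.35), the clamp loader RFC3 (-1.29), the polymerase subunit POLE2 (-1.28), the replication factor MCM10 (-1.26) and the origin subunit ORC1 (-1.24). With HIF1A siRNA and with HIF2A siRNA they had 0 calls against control siRNA (limma, 0 lower and 2 higher, and 1 lower and 1 higher, at an unadjusted p under 0.05), with medians of -0.06 and 0.04. Of all 14232 genes, 3395 were lower and 962 higher at that unadjusted threshold with HIF1A siRNA, and 247 and 255 with HIF2A siRNA. Of 24 genes of histone mRNA synthesis and processing, 8 fell (33.3%) and 0 rose (median -0.46). CCNE2 (-1.49) and CCNE1 (-0.99) encode cyclin E, LSM10 (-1.23) a subunit of the U7 snRNP, CPSF3 (-0.82) the cleavage enzyme, and SRRT (-0.66) a cap-binding adaptor. SLBP, the stem-loop binding protein, fell by 0.58 on the log2 scale (adjusted p = 0.0416). NPAT was in no probe set with a single symbol.

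Of 21 chaperone and deposition genes, 8 fell and 1 rose in hypoxia (42.9% in all, against 12.3% of all genes; median -0.45). HAT1, which acetylates new H4 (-1.30), the H3-H4 chaperones ASF1A (-1.10), MCM2 (-0.98), NASP (-0.95) and ASF1B (-0.94) fell most. CABIN1, a subunit of the HIRA complex that deposits H3.3, rose by 0.94. With HIF1A siRNA against control siRNA 2 of the 21 fell (9.52%), close to the 10.2% of all genes, namely CABIN1 (-0.75, adjusted p = 0.00166) and ANP32E, an H2A.Z chaperone (-0.89, adjusted p = 0.0387). Of 12 measured histone variants outside the clusters, whose mRNAs are mostly polyadenylated, 2 fell (16.7%) and 0 rose (median -0.23), H2AZ1 and MACROH2A1, at -0.64 each. For HIF2A siRNA against control siRNA limma gave 0 calls in each of the 4 lists, with 1 processing gene lower at an unadjusted p under 0.05 and 0 chaperone or variant genes in either direction. For HIF1A siRNA against control siRNA the processing and variant lists also had 0 calls (5 and 0 lower and 0 higher at an unadjusted p under 0.05), with medians of -0.24 and 0.02. At that unadjusted threshold 3395 of all 14232 genes were lower and 962 higher with HIF1A siRNA, and 247 and 255 with HIF2A siRNA. Against normoxia, 27 S phase genes fell with HIF1A siRNA and 23 with HIF2A siRNA, and 18 and 5 processing genes and 14 and 6 chaperone genes did so, where 30.4% and 6.79% of all genes fell on the same normoxic arrays. The difference between these counts was not tested.

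Markers of cells in cycle moved with the histone genes in part. CCNA2, an S and G2 phase cyclin, fell in hypoxia (-0.81, adjusted p = 0.0119 with limma), while CCNB1 (-0.62, adjusted p = 0.0610), CDK1 (-0.61), TOP2A (-0.11) and MKI67 (0.12) were not called. The mean of these 5 markers was 10.10 in normoxia, 9.69 in hypoxia with control siRNA, 9.16 with HIF1A siRNA and 9.70 with HIF2A siRNA. It was lowest with HIF1A siRNA, but none of the 5 markers was called there against control siRNA (limma, lowest adjusted p 0.0626). Against normoxia, CCNA2 (-1), CCNB1 (-0.87), CDK1 (-1.36) and TOP2A (-0.94) were called lower with HIF1A siRNA, and MKI67 (-0.51) was not. In that comparison 30.4% of all genes fell. With HIF2A siRNA only CCNA2 (-0.71) of these markers was called against normoxia, where 6.79% of all genes fell. TOP2A (9.33, 10.26 and 9.05), CDK1 (7.03, 8.23 and 6.63) and MKI67 (8.72, 9.35 and 8.58) were highest on HIF1A siRNA replicate 2, CCNA2 and CCNB1 on replicate 1. The histone median on these arrays was 7.87, 7.48 and 7.19, against 7.45, 7.38 and 7.46 with control siRNA. The part of these markers in the histone values was not tested.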

How the data were processed

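The deposited values of 12 arrays, 1 per probe set (22011) and array, were used as log2 expression. Base 2 was inferred from their range. Partek (software) and hg18 (build) appear in the submitters' processing notes. How background was corrected and probes were summarized and normalized is not given in the sources used, and no value was changed before the tests.

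The platform annotation pairs 14432 probe sets with 1 symbol, 2408 with several and 5171 with none here. A gene with several single-symbol probe sets kept that with the highest mean, which left 14232 genes. Group means were fitted over all arrays and probe sets with limma 3.58.1 (lmFit and eBayes, R 4.3.3). P-values were adjusted by Benjamini-Hochberg over the 14232 genes in each of 6 comparisons and called under 0.05. Errors are limma's standard errors, n = 3 arrays per group, and that number limits the precision. The fit was tested on simulated data with independent normal noise for each probe set, which hold no shifts shared by an array's genes. The histone genes, the gene lists, the promoter motifs and the tests were chosen with earlier results of these data known.

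Genes named are the siRNA targets, every histone gene called in any comparison, the 3 highest and 3 lowest in each, and up to 5 called genes per list and comparison, and further histone genes and the markers were named as examples after their values were seen. Promoter letters were searched in RefSeq windows of 250 bases (GRCh38.p14) with Python 3.11.15 and pandas 2.3.3, and plots were made with matplotlib 3.10.9. Over all groups, same-numbered arrays did not deviate together (18 pairs, correlation of deviations -0.29 to 0.42, 5 over 0.1). Differently numbered arrays gave 36 pairs from -0.49 to 0.49, with 11 over 0.1. Between hypoxia control and normoxia the same-numbered pairs stood at 0.30, 0.17 and 0.05, and the others ran from -0.28 to 0.12. The numbers were not taken as pairs. Alternatives were 3 other normalizations, a filter on dim probe sets, a replicate block, the compared groups alone, array weights, an intensity trend, the mean of a gene's probe sets, and leaving out each array.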

Additional observations from a re-analysis of the deposited data

How the results depend on the processing

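The fall in hypoxia kept its direction in all 9 alternatives that keep every array, with 23 to 29 genes lower and 0 higher. Of all genes, 8.43% to 19.6% were lower and 3.19% to 7.44% higher in these. The 29 came with array weights or the compared groups alone, where 19.6% and 13.7% of all genes were lower. The histone median was -0.73 to -0.50 (the -0.50 with cyclic loess), and 13 of the 24 calls were kept in all 15 alternatives. Leaving out 1 array at a time gave 13 to 23 genes lower, where 3.53% to 7.55% of all genes fell. For HIF1A siRNA against control siRNA the rises numbered 11 with quantile normalization, 9 with array medians centred and 12 with cyclic loess. Of all genes, 5.1%, 3.58% and 3.83% rose under these. Histone rises numbered 1 with the replicate block (0.66% of all genes) and 0 with the compared groups alone (0.0211%) or array weights (0.393%). Leaving out 1 array gave 0 to 2 rises (0.169% to 1.39% of all genes), 0 to 1 falls (2.57% to 17.2%) and histone medians of 0.03 to 0.24. For HIF1A siRNA in hypoxia against normoxia the falls numbered 12 with quantile normalization or cyclic loess, where 14.6% and 15.6% of all genes fell. The histone median there was -0.16 with cyclic loess. The rises in that comparison numbered 2 with medians centred, where 20.3% of all genes rose. They numbered 0 with cyclic loess (12.6% of all genes), the compared groups alone (2.22%) or array weights (3.6%). Leaving out 1 array in that comparison gave 13 to 32 falls (15.5% to 32.2% of all genes), 0 to 1 rises (1.05% to 4.09%) and medians of -0.56 to -0.33. For HIF2A siRNA against normoxia array weights gave 28 falls and 1 rise, where 15.6% of all genes fell and 7.01% rose. Leaving out 1 array there gave 3 to 12 falls (2.44% to 4.53% of all genes), 0 rises (1.69% to 2.18%) and medians of -0.53 to -0.41. For HIF1A against HIF2A siRNA the rises numbered 1 with each of the 3 normalizations, where 3.72% to 5.61% of all genes rose. The falls numbered 0 with the compared groups alone (0.864% of all genes). Leaving out 1 array gave 0 to 4 falls (1.78% to 16.4% of all genes) and histone medians of -0.12 to 0.12. The causes were not tested. Among uncalled values, HIF1A in hypoxia turned to 0.02 with quantile normalization, 0.09 with cyclic loess and ran from -0.19 to 0.04 when 1 array was left out, and EPAS1 with HIF1A siRNA against normoxia to 0.14 and 0.13 with these normalizations.

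The median of all genes for HIF1A siRNA against normoxia moved from -0.12 to 0.08, 0.06 and 0.03 with quantile normalization, centred medians and cyclic loess, and calls over all genes from 664 higher and 4322 lower to 2241 and 2082, 2882 and 3306, and 1795 and 2216. The all-gene median with quantile normalization was 0.07 against -0.05 for HIF1A against control siRNA, and 0.08 against -0.06 for HIF1A against HIF2A siRNA. In hypoxia with control siRNA calls moved from 480 and 1274 to 946 and 1200, 767 and 1438, and 1059 and 1289. The numbers over all groups do not support the replicate block as pairing. With it, the falls of histone genes against normoxia were 23 with control siRNA, 26 with HIF1A siRNA and 17 with HIF2A siRNA. For HIF1A against HIF2A siRNA they were 2. Of all genes, 8.9%, 29.6%, 6.42% and 7.14% were lower in these comparisons, in that order. No measure of background comes with the values, so the size of a difference below the lower quartile is uncertain.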
